A study of Mus musculus with 60 samples.

Results

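A set of 9 genes of myelin and of the oligodendrocyte lineage was followed through 60 messenger RNA libraries of the mouse brain: Mbp, Mobp, Mal, Mog, Mag, Cldn11, Cnp, Ugt8a and Olig2. They were picked by symbol, under a rule that names no measured value though earlier results of these data were known, and all 9 were found among the 21999 genes of the count table and of the RPKM table (read counts scaled by gene length and by library total). The libraries came from 20 mice, each of which gave prefrontal cortex (Pfc), striatum (Str) and hippocampus (Hip). Wild-type (WT) mice and Glo1 knockout (KO) mice received either a normal diet, holding 1.4 mg of vitamin B6 (VB6) per 100 g, or a VB6-lacking diet, holding 5 µg per 100 g, between 8 and 12 weeks of age. Each of the 4 combinations of genotype and diet held 5 mice. The labels put every KO library in batch 1 and every WT library in batch 2, so that genotype and batch cannot be told apart in any comparison of KO with WT. How the Glo1 allele was made was not given in the sources used here.

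Oligodendrocytes wrap axons of the central nervous system in myelin, a membrane sheath rich in lipids and in a small set of abundant proteins. White matter tracts are dense in these cells, and the striatum and hippocampus are crossed or bordered by such tracts, whereas the cortical grey matter holds less myelin. The transcription factor Olig2 is expressed from the precursor stage onward, while the genes of myelin proteins are switched on as the cells mature. Glo1 encodes glyoxalase I, which clears methylglyoxal, and VB6 gives rise to the cofactor pyridoxal phosphate.

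Counted reads per library ranged from 7640047 to 13928265, and RNA integrity numbers (RIN) from 7.6 to 9.3. Counts of the 9 genes in single libraries lay between 110 (Mog) and 25559 (Mbp). Glo1 had 299 to 734 counts in the 30 WT libraries and 0 to 10 in the 30 KO libraries, which goes with the labels. Regional marker genes followed the labelled tissue: 8 of 8 striatal markers were higher in striatum than in cortex, 7 of 8 hippocampal markers were higher in hippocampus than in cortex, and 7 of 8 cortical markers were lower in striatum than in cortex. Several of the 9 genes are also expressed by Schwann cells of peripheral nerve. None of the 5 Schwann markers examined reached the count minimum for testing, their summed level was at most 2.39 CPM (counts scaled to a common library total) in any library, and Pmp2, which encodes a peripheral myelin protein, was at 0 in all 60 libraries.

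RefSeq promoter windows (GRCm38.p6, 250 bases before a transcription start) were held for 8 of the 9 genes, none for Mbp, with 10 windows in all. Windows of 3 of the 8 genes, Mog, Mag and Cnp, contained CTGGCAC or CTGGTAC on either strand, the letters bound by the myelin regulatory factor MYRF, against 5.93% of the 32851 windows in the table. Windows of 4 genes, Mobp, Mag, Cnp and Olig2, contained ACAAAG or ACAATG on either strand, letters bound by SOX factors such as SOX10, against 25.2% of all windows, and Mobp held 6 of them. The E-box CANNTG, which basic helix-loop-helix factors such as OLIG2 bind, was present in windows of 3 genes, against 66.2% of all windows. These are counts of genes, whereas the shares are of windows. Counted by window, 4 of the 10 held MYRF letters, 5 held SOX letters and 4 held the E-box. Overlapping windows of Mag share their MYRF and SOX matches. Such matches describe the letters only and are not evidence of binding. Printed here are the window of Mobp, with the most SOX matches, and a window of each of the 3 genes with MYRF letters. The sequences run 5′ to 3′ on the gene's strand and end at the base before the GENCODE gene start. Matches to the MYRF and SOX letters are in capitals. Mobp is chr9:120149492-120149706 (plus strand), Mog chr17:37023399-37023648 (minus), Mag chr7:30914874-30915113 (minus) and Cnp chr11:100574689-100574903 (plus).
Mobp: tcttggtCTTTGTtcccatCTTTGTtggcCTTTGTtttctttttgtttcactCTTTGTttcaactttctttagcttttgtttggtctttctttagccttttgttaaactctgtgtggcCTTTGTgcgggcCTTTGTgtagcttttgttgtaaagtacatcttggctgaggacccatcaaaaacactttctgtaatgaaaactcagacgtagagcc
Mog: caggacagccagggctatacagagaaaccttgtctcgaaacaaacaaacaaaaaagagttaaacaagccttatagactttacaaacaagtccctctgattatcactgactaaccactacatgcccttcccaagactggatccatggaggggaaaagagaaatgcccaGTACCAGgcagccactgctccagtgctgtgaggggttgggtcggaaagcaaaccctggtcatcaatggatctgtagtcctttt
Mag: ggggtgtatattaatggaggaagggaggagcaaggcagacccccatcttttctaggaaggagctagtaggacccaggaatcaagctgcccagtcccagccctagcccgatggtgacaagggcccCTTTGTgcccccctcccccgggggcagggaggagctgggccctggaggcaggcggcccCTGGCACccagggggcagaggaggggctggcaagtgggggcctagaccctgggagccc
Cnp: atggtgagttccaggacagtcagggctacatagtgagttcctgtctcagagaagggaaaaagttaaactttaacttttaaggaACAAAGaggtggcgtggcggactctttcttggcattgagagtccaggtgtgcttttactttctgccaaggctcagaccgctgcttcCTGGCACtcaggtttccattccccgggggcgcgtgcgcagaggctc

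The genes lie on 8 chromosomes in the GRCm38 annotation (GENCODE M21): Mbp at chr18:82475146-82585637, Mobp at chr9:120149707-120181484, Mal at chr2:127633226-127656695, Mog at chr17:37010743-37023398, Mag at chr7:30899176-30914873, Cldn11 at chr3:31149920-31164324, Cnp at chr11:100574904-100591729, Ugt8a at chr3:125865271-125938619 and Olig2 at chr16:91225457-91228677. Mog shares chromosome 17 with Glo1 and lies 6.38 Mb from it. Exons of Cnp overlap exons of Dnajc7 on the opposite strand, and the strand setting of the counting is not given in the sources used here, so reads of that stretch could belong to either gene. Mobp overlaps Gm38642, a processed transcript on the same strand that has no row among the counted genes.

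The first question was how the 9 genes were distributed over the 3 regions. All 8 genes of myelin proteins and myelin enzymes were lowest in prefrontal cortex, intermediate in hippocampus and highest in striatum, with 2.29- to 3.37-fold higher levels in striatum than in cortex. Olig2 had another order: it was highest in hippocampus, and its levels in striatum and cortex did not differ beyond their spread. Differences were tested by edgeR's quasi-likelihood test on counts over all 60 libraries, with Benjamini-Hochberg (BH) adjustment over 13930 genes and a threshold of 0.05. In bulk tissue, fewer cells of a type and less RNA per cell cannot be told apart.

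Among the genes of compact myelin, Mbp encodes myelin basic protein, which holds the inner faces of the membrane together. Its level in RPKM had a lowest, median and highest value of 54.6, 81.5 and 108 in the 20 cortical libraries, of 127, 154 and 209 in hippocampus, and of 138, 203 and 237 in striatum. Every striatal and every hippocampal library thus lay above every cortical one, while striatum and hippocampus overlapped. Mobp, encoding the myelin-associated oligodendrocyte basic protein, had the widest regional range, with 47.0, 77.2 and 109.8 RPKM in cortex, 134, 206 and 260.0 in hippocampus, and 222, 253 and 319.9 in striatum. Its striatal excess over cortex was 3.37-fold, a log2 fold change of 1.75 (SE 0.08), and within single mice it ranged from 2.52- to 6.13-fold. Mal encodes a small membrane protein of lipid-rich domains, and it had 43.3, 63.2 and 103 RPKM in cortex, 88.4, 135 and 183 in hippocampus, and 136, 171 and 223 in striatum. The 2 lower regions overlapped for Mal, whereas no striatal library fell into the cortical range.

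Of the adhesion and surface proteins, Mog encodes a glycoprotein of the outermost myelin layer, and it rose from 6.16, 10.3 and 14.1 RPKM in cortex to 10.98, 20.3 and 27.2 in hippocampus and 17.6, 26.4 and 31.9 in striatum. Mag encodes a sialic acid-binding receptor of the innermost layer next to the axon. It had 5.26, 9.03 and 11.8 RPKM in cortex, 10.7, 14.6 and 22.7 in hippocampus, and 12.9, 21.3 and 28.7 in striatum. Cldn11, the claudin of the tight junctions within myelin, had 25.8, 36.6 and 52.5 RPKM in cortex, 51.3, 76.0 and 98.4 in hippocampus, and 74.2, 93.0 and 106 in striatum. For these 3 genes the striatal libraries again cleared the cortical range, and the hippocampal libraries overlapped it at its upper end.

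Both myelin enzymes showed the same order. Cnp, encoding 2′,3′-cyclic nucleotide phosphodiesterase of non-compact myelin, had 17.02, 24.5 and 30.9 RPKM in cortex, 30.01, 47.0 and 58.0 in hippocampus, and 38.7, 59.1 and 69.5 in striatum. Ugt8a, whose product makes the myelin lipid galactosylceramide, had 8.87, 11.8 and 15.3 RPKM in cortex, 16.9, 22.97 and 31.2 in hippocampus, and 22.5, 27.2 and 35.3 in striatum. Olig2, the lineage transcription factor, had the lowest mean RPKM of the 9 genes in each region, with 5.13, 6.79 and 9.62 RPKM in cortex, 5.55, 7.49 and 9.43 in striatum, and 6.21, 8.86 and 13.1 in hippocampus. All 3 ranges of Olig2 overlapped.

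**Figure D1:**
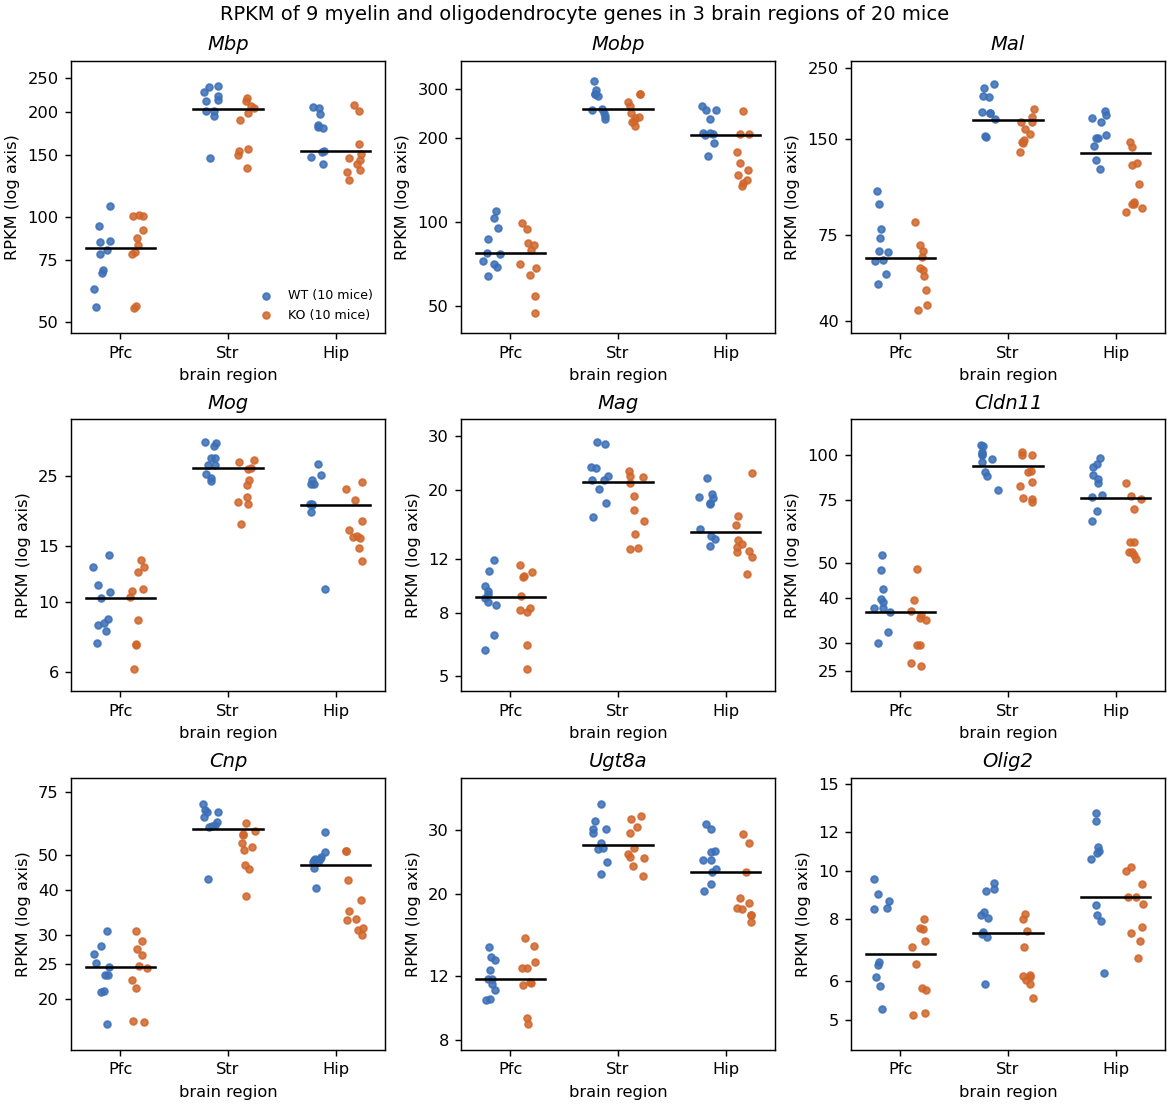
Each panel shows 1 gene, with RPKM on a logarithmic axis against brain region; points are single libraries of 10 WT mice (blue) and 10 KO mice (orange), and black bars are medians over 20 mice. The 8 myelin genes have all striatal points above all cortical points, whereas the ranges of Olig2 overlap.

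In the test, 8 of 9 genes were higher in striatum than in cortex, where 35.9% of all genes tested were higher. The log2 fold changes of the 8 genes ran from 1.19 (SE 0.08) for Mag over 1.24 for Ugt8a, 1.26 for Cnp, 1.30 for Mbp, 1.35 for Cldn11, 1.38 for Mog and 1.43 for Mal to 1.75 for Mobp, with a median over all 9 of 1.30 against 0.01 for all genes. Olig2 differed by 0.09 (SE 0.08; 95% interval -0.06 to 0.24; edgeR adjusted p = 0.28). All 20 striatal libraries exceeded all 20 cortical ones in RPKM for 8 of 9 genes, against 8.31% of all genes. All 8 were higher in the striatum of the same mouse in 20 of 20 mice, and Olig2 in 13 of 20.

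Hippocampus exceeded cortex for 9 of 9 genes, where 30.2% of all genes were higher. Mobp again had the largest log2 fold change, 1.25 (SE 0.08), and Olig2 the smallest, 0.34 (SE 0.07; edgeR adjusted p = 7.8e-05); the median of the 9 was 0.90 against 0.01 for all genes. Libraries of the 2 regions did not overlap in RPKM for 3 genes (Mbp, Mobp and Ugt8a), against 5.83% of all genes for hippocampus above cortex. Cnp and Olig2 were higher in the hippocampus of 19 of 20 mice, and the other 7 in 20 of 20.

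Between striatum and hippocampus the differences were smaller, and 8 genes were higher in striatum, where 33.6% of all genes were higher. They ranged from 0.33 (Mbp, SE 0.07) to 0.50 (Mobp, SE 0.08) on the log2 scale, with a median over the 9 of 0.45 against 0.01 for all genes, and none of the 9 had ranges that cleared each other, against 16.5% of all genes without overlap. Olig2 was lower in striatum than in hippocampus, as were 32.9% of all genes, by a log2 fold change of -0.25 (SE 0.07; edgeR adjusted p = 0.0028), in 18 of 20 mice. In WT mice alone that adjusted p was 0.0500 (edgeR), so that Olig2 just missed the threshold there, with a log2 fold change of -0.26.

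Further genes of the lineage, listed by role, placed these levels among their partners. Of all 13930 genes tested, 35.9% were higher in striatum than in cortex and 4739 were lower. Of 16 tested genes of myelin structure and adhesion, 14 were higher in striatum than in cortex and 0 lower, with a median log2 fold change of 1.14; Tmem88b had 1.30 and the actin-binding protein gene Ermn 1.36. Of 14 genes of the mature oligodendrocyte cytoplasm, 12 were higher and 1 lower, led by Anln (1.72). Lineage transcription factors other than Olig2 were higher for 9 of 10 genes, among them Myrf (1.099), Sox8 (0.77) and St18 (1.74). The precursor list had 3 of 9 genes higher (Vcan by 0.93, Lhfpl3 by 0.67) and 3 lower (Sox6 by -0.33), near the shares of all genes. The list of newly formed oligodendrocytes was split as well, with 3 of 8 higher and 4 lower. In hippocampus minus cortex, 30.2% of all genes were higher and 4052 of 13930 lower. There, 5 of 9 precursor genes were higher and 1 lower, and 7 of 8 genes of newly formed cells were higher and 0 lower. The structure, cytoplasm and transcription factor lists kept their direction there, with 13 of 16, 12 of 14 and 9 of 10 genes higher and 1, 1 and 0 lower. The summed cytoplasm list ranged from 1043 to 2902 CPM in hippocampus (median 1395), against 984 to 1364 in cortex (median 1228). Choroid plexus markers summed to 30.8 to 1704 CPM over hippocampal libraries, and their part in the cytoplasm list was not tested. Of 12 genes of lipid synthesis, 7 were higher in striatum, including Aspa (1.25), and 4 were lower, among them Sqle (-0.95), which encodes an enzyme of cholesterol synthesis that other brain cells express as well.

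Many markers of other cells moved with region too. The summed level of 7 neuronal genes had a median of 11264 CPM in cortex, 8336 in hippocampus and 6087 in striatum, the reverse of the order of the myelin genes, and 5 of 7 were lower in striatum than in cortex. Astrocyte markers were lower in striatum for 7 of 7 genes, with a median log2 fold change of -0.24. Markers of meninges and fibroblasts were lower in striatum for 6 of 6 genes, with a median of -1.21. Of all 13930 genes tested, 4739 were lower in striatum than in cortex. Choroid plexus markers were higher in hippocampus than in cortex for 6 of 6, with a median of 4.77, against 30.2% of all genes. Ependymal markers were higher than in cortex for 3 of 4 tested genes in striatum (median 1.38) and 4 of 4 in hippocampus (1.68). The shares of all genes were 35.9% and 30.2%. Of 8 microglial markers, 3 were higher and 0 lower in striatum than in cortex, near the 35.9% of all genes that were higher there. In hippocampus 0 were higher and 5 lower, where 4052 of 13930 genes were lower. Of 6 endothelial markers, 1 was higher and 0 lower in striatum, and 0 were higher and 3 lower in hippocampus. Since CPM and RPKM are shares of a library, a rise of 1 cell type's share lowers the others, and the part of these shifts in the regional differences of the 9 genes was not tested.

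Genes outside the 9 with the most similar pattern were searched by Pearson r, over 60 libraries and 13046 genes with a mean of at least 1 CPM, to the mean of the 9 standardized log2 levels. Among the highest were Bcas1 (r = 0.976), Tmem88b (0.971), Plekhh1 (0.958) and Fa2h (0.953). These 4 stood in the lists of oligodendrocyte genes, and the median RPKM of Bcas1 was 27.1 in cortex, 57.9 in hippocampus and 67.3 in striatum. For comparison, 8 members themselves had r between 0.949 (Mag) and 0.977 (Mbp) with that mean, which includes them, and Olig2 had 0.437. These r are descriptions that rest largely on the 3 regions.

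Spread between mice of the same group differed by region. The SD of log2 CPM around the group means had a median over the 9 genes of 0.31 in cortex (0.22 for Ugt8a to 0.34 for Mog), 0.18 in striatum (0.16 for Mobp to 0.26 for Mag) and 0.27 in hippocampus (0.20 for Mbp to 0.32 for Mog). Among genes with a mean of at least 20 CPM, the median SD was 0.14, 0.16 and 0.15 in these regions. Among these genes the SD of the members stood at percentiles from 89.3 (Ugt8a) to 99.5 (Mog) in cortex and from 52.2 (Mobp) to 90.9 (Mag) in striatum, although Mog in cortex and Olig2 in cortex and striatum averaged below that CPM minimum themselves. Among all genes tested, low counts included, the percentiles were 57.7 (Ugt8a) to 81.8 (Mog) in cortex and 29.6 (Mobp) to 64.8 (Mag) in striatum, where 8 of the 9 genes lay below the median. The place of the members among other genes thus depended on the abundance of the genes they were set against.

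The genes also varied together from mouse to mouse. Deviations from the group means were correlated for each of 36 pairs in each region, over 20 mice, with 100000 permutations within groups and BH adjustment over the 108 pairs. In cortex all 36 r were positive, with a median of 0.74, and 29 pairs passed the threshold. The closest pair was Mobp and Mal, with r = 0.94 and rho = 0.94, a permutation p of 1e-05 for r, which is the smallest that the permutations can give (BH-adjusted 0.00015), and r = 0.92 without the 2 mice farthest from the median. Olig2 was more loosely tied, with r from 0.28 (Mal) to 0.62 (Mbp).

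Striatum and hippocampus showed a division into sets. Mobp, Mal, Cldn11 and Ugt8a varied together, with r of 0.61 to 0.89 in striatum and 0.86 to 0.96 in hippocampus, and all 6 pairs passed in both regions. Mbp, Mog and Mag formed another set, with r of 0.67 to 0.85 in striatum and 0.74 to 0.83 in hippocampus, and all 3 pairs passed. Across the sets, the 12 pairs had r of -0.21 to 0.13 in striatum and 0.12 to 0.52 in hippocampus, and 0 of 12 passed in either region; at an unadjusted permutation p under 0.05, 0 did so in striatum and 1 in hippocampus. Without the 2 mice farthest from the median, 2 of the 12 passed in hippocampus. Cnp passed with 4 of 4 genes of the first set and 0 of 3 of the second in hippocampus, and with 2 of 4 and 0 of 3 in striatum. In striatum its median r was nevertheless 0.50 with the first set and 0.52 with the second, and its largest r was with Mbp (r = 0.61, rho = 0.55, BH-adjusted permutation p = 0.051; 0.24 without the 2 farthest mice). In hippocampus Olig2 had r of -0.49 with Mobp (rho = -0.38, BH-adjusted permutation p = 0.063) and of 0.64 with Mog (rho = 0.57, BH-adjusted permutation p = 0.035), the latter falling to 0.32 without the 2 mice farthest from the median. The sets were chosen after these values were seen and are a description.

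**Figure D2:**
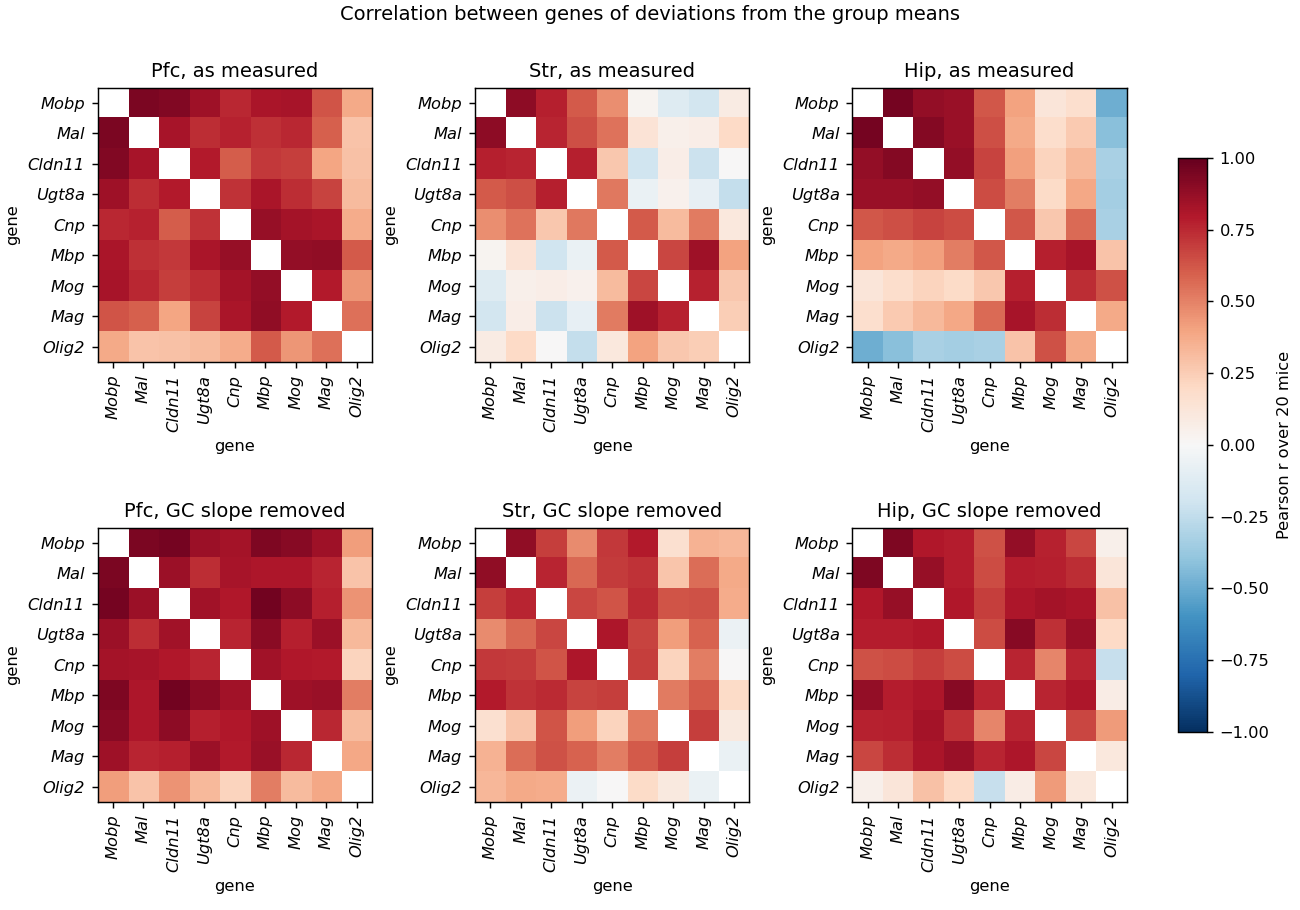
Squares show Pearson r over 20 mice between deviations of 2 genes from their group means (red positive, blue negative), in cortex, striatum and hippocampus from left to right, as measured (upper row) and after the part that follows the GC slope of the library was removed (lower row). In the upper row the striatal and hippocampal squares between the sets are paler than those within them, with r up to 0.52 in hippocampus. In the lower row the hippocampal squares between the sets are red, and the striatal ones run from pale (r = 0.16) to red (0.79).

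This division moved with a property of the libraries, the GC slope, which is the change in a library's log2 CPM relative to the other libraries of its region per 10 percentage points of transcript GC content, computed over 12553 to 12756 genes without the 9. It ranged from -0.32 to 0.26 over striatal libraries, from -0.31 to 0.19 in hippocampus and from -0.29 to 0.18 in cortex. In striatum it was correlated with Mbp at r = 0.80 (rho = 0.76, permutation p = 0.00086, BH-adjusted 0.023 over 81 relations; 0.72 without the 2 farthest mice) and with Mag at r = 0.77 (rho = 0.76, permutation p = 0.00043, adjusted 0.023; 0.75 without the 2 farthest). Mobp had r = -0.50 there, and Cldn11 r = -0.67, neither of which passed. In hippocampus Mobp had r = -0.68 (rho = -0.65, permutation p = 0.00085, adjusted 0.023; -0.63 without the 2 farthest), and Olig2 had r = 0.75 (rho = 0.67, permutation p = 0.0036, adjusted 0.073). No member passed in cortex, where Mag had the largest r, 0.68 (adjusted permutation p = 0.081).

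An alternative chosen after seeing the data took the part that follows the GC slope out of each gene. The median r across the sets went from -0.02 to 0.61 in striatum and from 0.29 to 0.80 in hippocampus. Of the 12 pairs across the sets, 8 and 12 passed. In both regions the first set had negative r with the slope and the second set positive r. Removing the slope therefore raises r across the sets by arithmetic, and the rise is not a separate result. Within the sets the medians were then 0.68 and 0.61 in striatum and 0.80 and 0.76 in hippocampus. In all, 22 of 36 pairs passed in striatum in place of 11, and 27 in place of 14 in hippocampus, while in cortex 29 passed both before and after. In the first set, the longest coding transcript had a GC content of 38.0% for Ugt8a, 48.9% for Mal, 50.9% for Cldn11 and 53.3% for Mobp. In the second set it was 50% for Mog, 51.0% for Mbp and 57.6% for Mag, so that the ranges overlapped. Cnp had 55.8% and Olig2 58.5%. That transcript can be shorter than the length behind the RPKM values, as for Mobp with 3286 against 6481 bases. The part of GC content in the division was not tested. With the GC slope removed, Olig2 remained apart, with r from -0.23 to 0.43 in hippocampus.

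**Figure D3:**
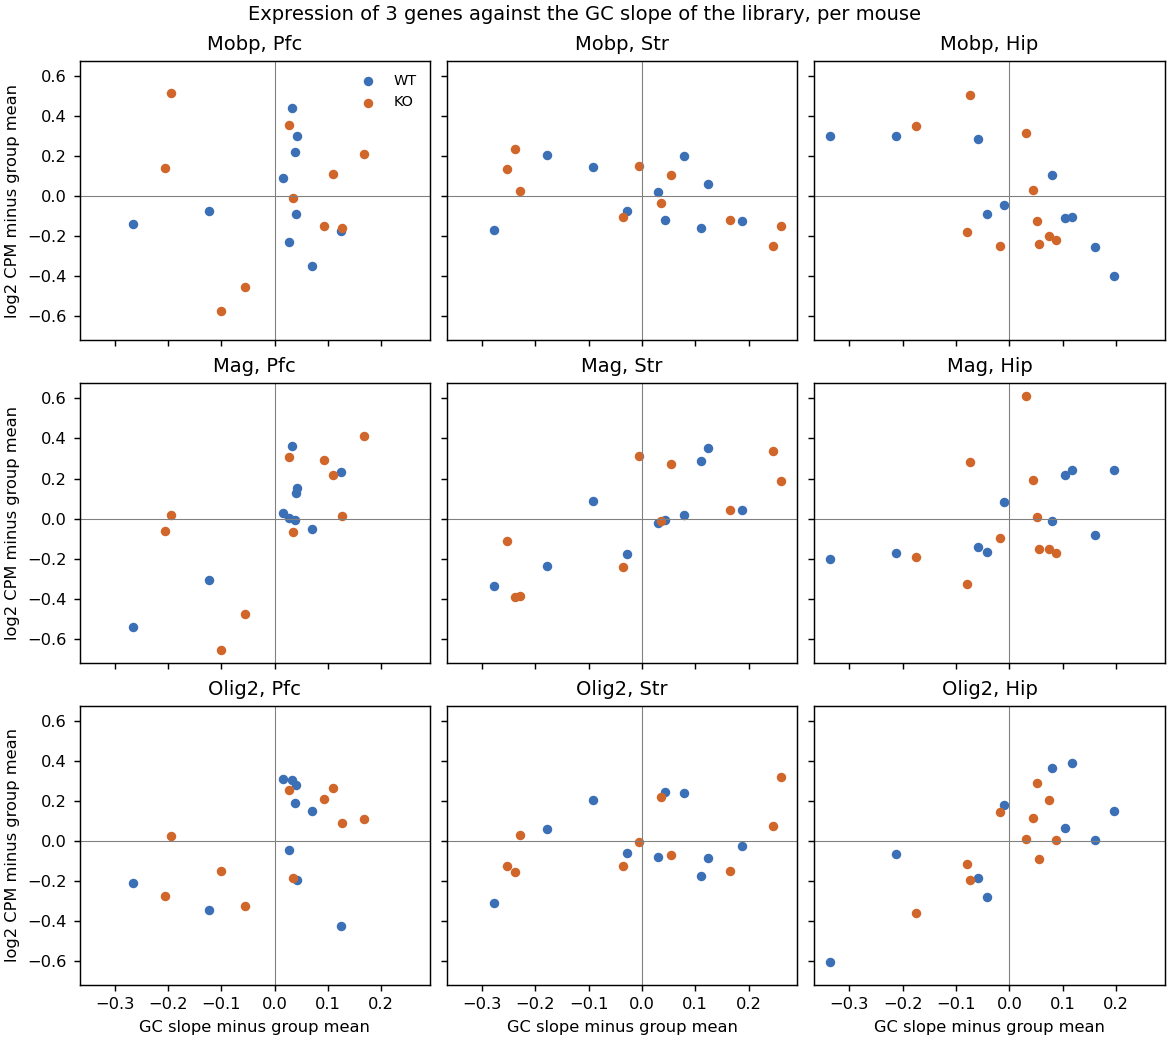
Points are single libraries of 10 WT mice (blue) and 10 KO mice (orange), with the deviation of the GC slope from its group mean on the horizontal axis and the deviation of log2 CPM on the vertical axis, for Mobp, Mag and Olig2 in each region. Mag rises with the slope in striatum, and Mobp falls with it in hippocampus.

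RIN was related to the members less closely: 0 of 27 relations passed, the largest being r = 0.57 for Mobp in hippocampus (rho = 0.52, permutation p = 0.021, BH-adjusted 0.17; 0.44 without the 2 farthest mice) and r = -0.53 for Olig2 in striatum (rho = -0.43, permutation p = 0.023, adjusted 0.17). RIN and the GC slope were themselves correlated in cortex, at r = -0.53 (rho = -0.60, permutation p = 0.033, adjusted 0.0499 over 3; -0.39 without the 2 farthest), and in hippocampus, at r = -0.56 (rho = -0.56, permutation p = 0.013, adjusted 0.040 over 3; -0.57 without the 2 farthest). Between regions of the same mouse, 1 of 27 relations passed: Olig2 in cortex and hippocampus, with r = 0.76 (rho = 0.76, permutation p = 0.00053, adjusted 0.014; 0.66 without the 2 farthest mice). Mal and Mobp had r of 0.59 and 0.58 between striatum and hippocampus, and neither passed (BH-adjusted permutation p = 0.14 for both).

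The comparison of KO with WT mice asked whether loss of Glo1 went with other levels of these genes. In hippocampus, over both diets, all 9 genes had lower estimates in KO mice, and Mal was the only one past the threshold; in cortex and striatum none passed. In hippocampus Mal was 1.41-fold lower in KO mice (log2 fold change -0.49, SE 0.10, edgeR adjusted p = 0.0488 over 13393 genes), so that it stood just inside the threshold. In that comparison 0.112% of all genes were called lower and 0.164% in either direction. Genotype and batch cannot be told apart here.

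Values of Mal in single hippocampal libraries were as follows. WT mice on the normal diet had 128, 143, 154, 175 and 183 RPKM, and WT mice on the lacking diet 120.3, 150.4, 150.7, 169 and 178. KO mice on the normal diet had 88.4, 91.2, 93.6, 126 and 141, and KO mice on the lacking diet 93.2, 94.8, 108, 124 and 146. All 10 KO values lay below the WT median of 153, and 6 of 10 lay below the lowest WT value, while the 4 highest KO values fell into the WT range. Group means were 157 ± 22.6 (SD, n = 5) and 154 ± 22.1 in WT mice on the normal and lacking diet, and 108 ± 24.1 and 113 ± 22.3 in KO mice.

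The other 8 genes had log2 fold changes of -0.40 (Cldn11, SE 0.10, edgeR adjusted p = 0.20), -0.37 (Cnp, SE 0.09, 0.15), -0.36 (Mobp, SE 0.11, 0.44), -0.29 (Ugt8a), -0.26 (Mog), -0.26 (Mag), -0.23 (Olig2) and -0.16 (Mbp) in hippocampus. Their median with Mal was -0.29, against 0.0008 for all genes. At an unadjusted p under 0.05, 8 of the 9 were lower, against 4.24% of all genes in either direction; since the genes vary together between mice, these are not 9 separate observations. For Cldn11, KO mice had a lowest, median and highest value of 51.3, 57.3 and 83.5 RPKM against 65.4, 84.8 and 98.4 in WT mice, and for Cnp 30.01, 34.2 and 51.4 against 40.7, 48.6 and 58.0. In Cldn11 6 and in Cnp 7 of the 10 KO values lay below all WT values, and the remaining ones fell into the WT range.

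**Figure D4:**
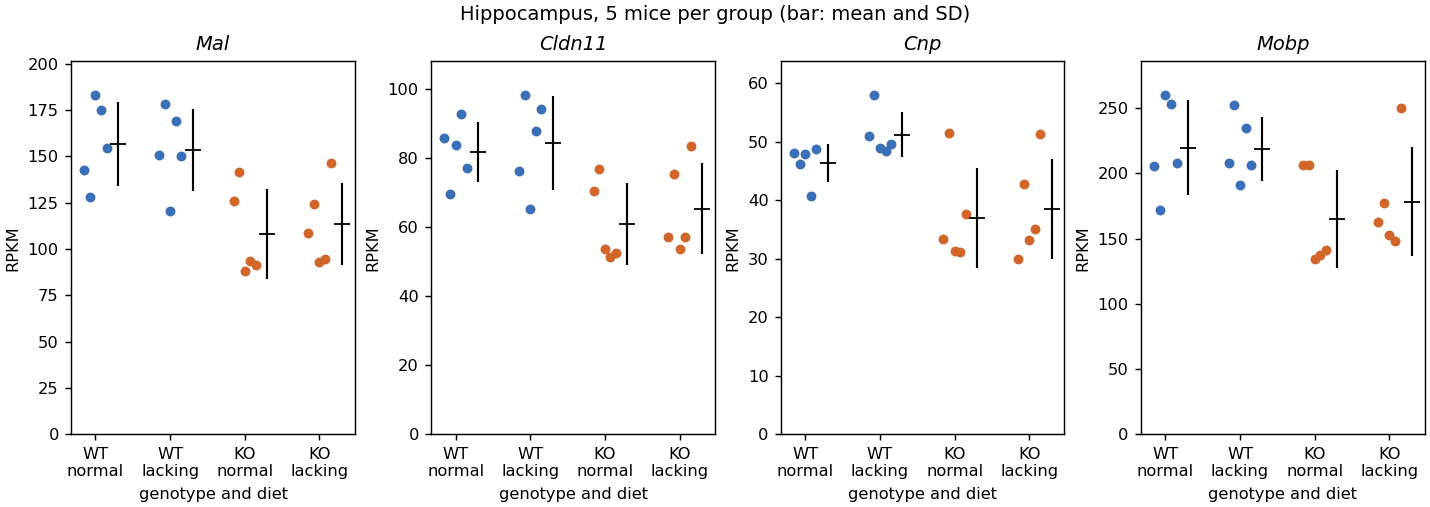
RPKM in hippocampus (axes start at 0) of Mal, Cldn11, Cnp and Mobp by genotype and diet; points are single mice, 5 per group, and bars give mean and SD. KO points (orange) of Mal lie mostly below the WT points (blue), and the diets within a genotype overlap.

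The call of Mal depended on single mice and on the test. Leaving out 1 mouse at a time kept the log2 fold change between -0.55 and -0.45, but the edgeR adjusted p stayed under the threshold in 5 of 20 such fits, and without any one of the other 15 mice it lay between 0.063 and 0.15. It was 0.0038 by DESeq2 and 0.058 and 0.060 by limma on log2(RPKM + 1) and log2(RPKM + 0.1). RIN averaged 8.78 in KO and 8.66 in WT hippocampi, and with RIN as covariate Mal (edgeR adjusted p = 0.0063), Cldn11 (0.018) and Mobp (0.032) all passed. With the GC slope as covariate, Mal had -0.44 (edgeR adjusted p = 0.012), and with the level of the choroid plexus gene Ttr as covariate -0.50 (0.042); both covariates were added after seeing the data. Ttr ranged from 2.14 to 1197 RPKM over hippocampal libraries.

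Further lists showed no call in the KO hippocampus: 0 of 16 genes of myelin structure (median log2 fold change -0.26), 0 of 13 of the mature cytoplasm (-0.21), 0 of 10 lineage transcription factors (-0.20), 0 of 9 precursor genes (-0.06) and 0 of 8 genes of newly formed oligodendrocytes (-0.07) passed. Neuronal, astrocyte and microglial lists had medians of 0.06, -0.02 and -0.02 there, with 0 calls. Choroid plexus markers had a lower median in KO hippocampi, -0.77, with 0 of 6 called and a summed level of 30.8 to 1704 CPM against 38.4 to 1387 in WT mice. Markers of meninges and fibroblasts had a median of -0.26, with 0 of 6 called and summed levels of 100.7 to 176 CPM against 104 to 192. Of these 12 markers, Slc4a5 was at 0 in 2 KO and 1 WT hippocampal libraries, and the others were detected in all. Apart from the fit with Ttr, their part in the lower estimates of the 9 genes was not tested.

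In striatum all 9 estimates were again negative in KO mice, from -0.27 (Mag) to -0.02 (Ugt8a), with a median of -0.19 against -0.0020 for all genes. The smallest p belonged to Mog, at -0.20 (SE 0.07, edgeR adjusted p = 0.74), and 5 of 9 had an unadjusted p under 0.05, against 5.78% of all genes; 0.203% of all genes passed after adjustment. Some lists of other cells had estimates of like size in striatum, and others did not. The median was -0.20 for 8 microglial, -0.26 for 4 tested ependymal and -0.16 for 6 meningeal and fibroblast genes, with 0 called. It was 0.06 for 7 neuronal, -0.04 for 7 astrocyte, -0.02 for 6 endothelial and -0.01 for 2 tested choroid plexus genes, also with 0 called. Summed microglial levels were 375 to 443 CPM in KO and 389 to 513 in WT mice, ependymal ones 3.78 to 10.2 and 3.81 to 15.3, and meningeal ones 15.9 to 21.6 and 18.3 to 36.9. The ependymal gene Tmem212 was at 0 in 4 KO and 2 WT striatal libraries and Ccdc153 in 2 KO libraries. The other markers of the microglial, ependymal and meningeal lists were detected in all. Their part in the estimates of the 9 genes was not tested. In cortex 8 of 9 estimates were negative and the median was -0.05, with Mal at -0.28 (SE 0.11, edgeR adjusted p = 0.24) and Cldn11 at -0.23 (0.31), where 0.673% of all genes passed; 2 of 9 had an unadjusted p under 0.05, against 14.1% of all genes. Mog, on the same chromosome as Glo1, was called in no region. DESeq2 and limma likewise called 0 members in cortex and striatum.

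Whether the KO effect differed between regions was tested directly, and no member passed in the 3 comparisons, in which 0%, 0.00718% and 0% of all genes did (smallest edgeR adjusted p 0.59 to 0.80). At an unadjusted p under 0.05 there were 3 members for striatum minus hippocampus, 1 for hippocampus minus cortex and 0 for striatum minus cortex, against 5.81%, 6.04% and 9.18% of all genes. The difference in the KO effect on Cldn11 between striatum and hippocampus had a log2 value of 0.31 (SE 0.14), and that on Mal 0.31 (SE 0.15). Mal was therefore called in hippocampus without a called difference from its effects in cortex (-0.28) and striatum (-0.19).

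**Figure D5:**
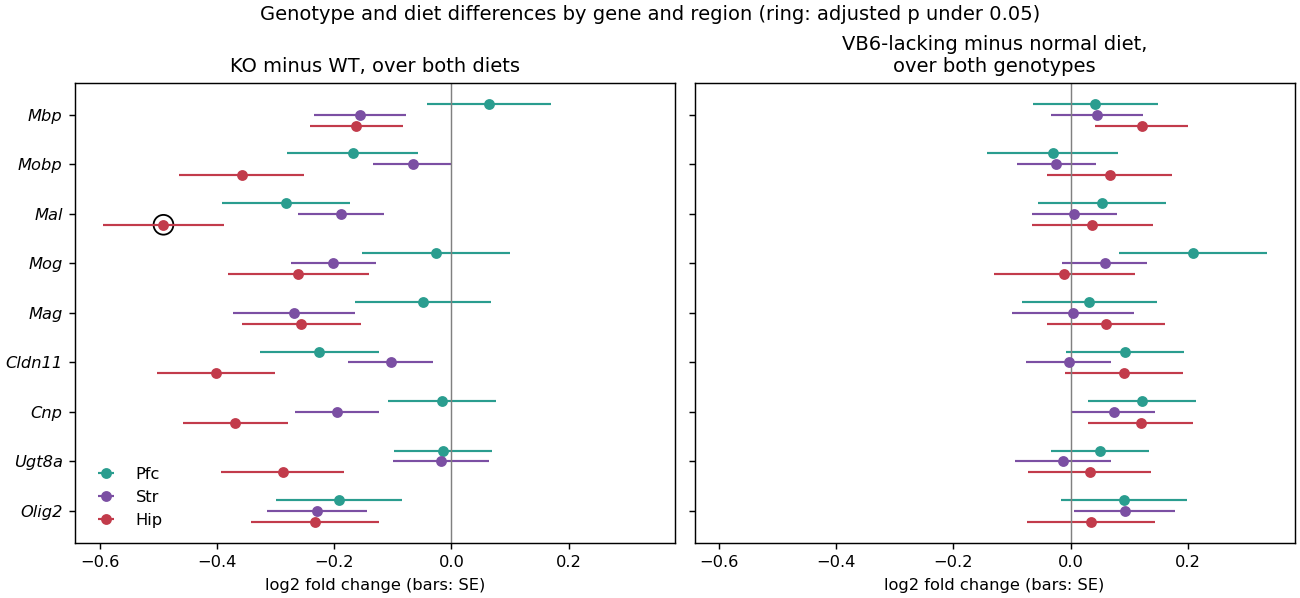
Points are log2 fold changes with their SE for each gene in cortex, striatum and hippocampus, for KO minus WT over both diets (left) and VB6-lacking minus normal diet over both genotypes (right); a ring marks an adjusted p under 0.05. Only Mal in hippocampus carries a ring on the left, and no point does on the right.

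The diet comparison asked whether the VB6-lacking diet went with other levels of the genes. No member was called in any of the 3 regions, over both genotypes or within either. In each of these comparisons 0% of all genes passed, so the lack of calls is not particular to the members. Over both genotypes, 0 of 9 members in each region had an unadjusted p under 0.05 by edgeR, against 3.28% of all genes in cortex, 3.06% in striatum and 2.15% in hippocampus; DESeq2 and limma also called 0. The estimates lay between -0.03 and 0.21 in cortex, -0.02 and 0.09 in striatum and -0.01 and 0.12 in hippocampus. The smallest p in cortex was that of Mog, with 0.21 (SE 0.13; 95% interval -0.04 to 0.46; edgeR adjusted p = 0.9998), in striatum that of Olig2, with 0.09 (SE 0.09), and in hippocampus that of Mbp, with 0.12 (SE 0.08; 95% interval -0.03 to 0.28). These intervals still hold changes of that size.

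Within single diets, Mal in hippocampus was lower in KO mice by -0.57 (SE 0.15, edgeR adjusted p = 0.38) on the normal diet and by -0.41 (SE 0.15, 0.74) on the lacking diet, and neither passed. On the normal diet 0.121% of all genes passed in cortex, 0.0601% in striatum and 0.0299% in hippocampus, and on the lacking diet 0.234%, 0.128% and 0.0672%. The genotype-by-diet interaction was called for no member in any region, and 0% of all genes passed in each. Its estimates ran from -0.27 (Mag, SE 0.20) to 0.18 (Mobp, SE 0.21) in hippocampus. When both factors differed (KO with the lacking diet, WT with the normal one), estimates were negative for 9 of 9 genes in hippocampus and striatum and 5 of 9 in cortex, with no call, where 0.0149%, 0.0826% and 0.28% of all genes passed.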

How the data were processed

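Per the labels' protocols, poly(A) RNA of 3 brain regions of 20 mice was read as single 75-bp reads. Per the submitters' processing notes, STAR 2.7.1a, HTSeq 0.9.1 and the build mm10 were used. The authors deposited whole-number read counts per gene and RPKM values for 60 libraries of 7640047 to 13928265 counts; 0 value columns were left without a sample. From each gene's deposited count and RPKM, the length used by the authors was recovered, for example 8403 bases for Mbp and 2437 for Olig2.

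Counts were tested in R 4.3.3 with edgeR 4.0.16 (TMM, filterByExpr at its count minimum of 10 and total minimum of 15, a mean per group, quasi-likelihood tests), within each region over 20 libraries, and between regions over 60. P-values were two-sided and BH-adjusted over all genes tested; fits were tested on simulated data. Alternatives were DESeq2 1.42.0, limma 3.58.1 on log2 RPKM, other filters, no TMM, RIN, each mouse left out, and, added after seeing the data, the GC slope and Ttr. Levels in log2 CPM for the spread, the correlations and the search for similar genes were scaled by TMM over all 60 libraries, with a prior count of 2. Summed CPM and the GC slope used library totals without TMM. GC content came from the longest coding GENCODE M21 transcript. Libraries with the same mouse number came from the same animal; deviations of same-mouse libraries had a mean correlation over genes of 0.04 to 0.08.

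The 9 genes and all lists were chosen with earlier results of these data known. Named genes were all 9 in the regional comparisons, any member past the threshold and the one with the smallest p elsewhere, up to 3 genes of smallest p per list, and the 5 most alike genes. Some items under this rule are not reported here.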

Additional observations from a re-analysis of the deposited data

Results flagged for a closer look

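Of 108 sets of 5 libraries (9 genes in 12 groups), 6 held a library that stood apart from the 4 others by more than 0.71 of the set's range in RPKM; chance gives about 1 in 20, or 5.4 sets. Among hippocampi of KO mice given the normal diet, mouse 268 was the highest for Mbp (201 RPKM, others 136 to 151), Mog (23.9, others 15.9 to 17.999) and Mag (22.7, others 12.6 to 13.4). That library had a RIN of 8.4 and 10030987 counts, and all 9 genes were above their group mean in it. Leaving it out, 2 members, Mal and Cnp, passed in the hippocampal comparison of KO with WT. Mouse 226 in the WT group on the lacking diet had the highest hippocampal Cnp (58.0 RPKM, others 48.5 to 50.9) together with the lowest hippocampal Mog (10.98) and Olig2 (6.21) of all 20 mice, and the deviation of its GC slope from the group mean was -0.34. Mouse 452 in the KO group on the lacking diet had the highest hippocampal Ugt8a of its group (29.2 RPKM, others 16.9 to 19.5), with a RIN of 9.3. In striatum, mouse 390 had the highest Olig2 of KO mice on the normal diet (8.20 RPKM, others 5.55 to 6.12), with a RIN of 7.8. The part of RIN and GC slope in these values was not tested.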

How the results depend on the processing

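Regional calls kept their number under every alternative run, including the fit with mouse as replicate block, in which 8, 9 and 9 of 9 members passed, except that 8 passed for striatum minus hippocampus in WT mice alone. The block changed no call of a member. For KO minus WT in hippocampus, where 1 member was called, 2 were called by DESeq2, 0 by limma with either pseudocount and 3 with RIN as covariate, and 0 to 2 when single mice were left out. The cause was not tested. All other comparisons within regions called 0 members under every alternative. With the GC slope removed, the pairs of members that passed rose from 11 to 22 in striatum and from 14 to 27 in hippocampus. Across the 2 sets, a rise in r follows by arithmetic from their opposite signs of r with the slope. The diet effect on Cldn11 in the hippocampus of KO mice turned from 0.15 to -0.0032 with the GC slope as covariate, and was called in neither. Over all genes, the KO calls in cortex ranged from 64 to 278 over alternatives and from 46 to 390 with single mice left out, against 89, and those in hippocampus from 20 to 41, against 22.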
